A study of Caenorhabditis elegans with 12 samples.

Results

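The SH line of Caenorhabditis elegans, in which mbl-1 is edited, was compared with wild type for the levels of its small RNAs at the L4 larval stage. The comparison took the 3 SH libraries and the 3 wild-type libraries out of 12 in the study, and every feature of the deposited count table that carries a registered miRNA name. That gave 370 of 471 features, the other 101 being predicted miRNAs. Of the 370, 235 had enough counts to be tested.

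The study asked how miRNA levels in whole animals differ from those of wild type when mbl-1 is mutated or restricted to certain protein isoforms. The mutant genotypes were mbl-1(syb4318) and mbl-1(syb4345), which make a short or a long form of the MBL-1 protein, and mbl-1(tm1563). SH is a column code, and the labels tie it neither to syb4318 nor to syb4345, so the SH line is either of those alleles and no isoform length is assigned to it here. The other isoform line carries the code CR_MED in the counts and is called ME here. The columns taken as tm1563 bear the gene name with no line code. Since all the mutants are of mbl-1, that assignment is inferred and not given by the labels. All animals, wild type (N2) included, were age-matched by bleaching, raised at 20 °C on OP50 bacteria and harvested whole as L4 larvae. Inserts of 18 to 40 nt were sequenced, so the mbl-1 messenger RNA was not read and the genotype of a library could not be checked.

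MBL-1 is the worm member of the Muscleblind family of RNA-binding proteins, which regulate alternative splicing in muscle and neurons, and its human relative MBNL1 also binds the precursor of miR-1. A miRNA precursor is a hairpin that Dicer cuts into a duplex with a 5p and a 3p arm. An Argonaute protein usually keeps the guide arm, and the other arm is degraded, so the arms of a precursor accumulate to unequal levels. The less abundant arm of a precursor, judged by its mean over all 12 libraries, is called the minor arm below, and its partner the major arm. In C. elegans, miRNAs were first found as timers of larval development, and many act in redundant families that share a seed.

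The SH libraries held 7099111 to 7512188 counts and the wild-type libraries 8493518 to 12053039, so that every SH library was shallower than every wild-type one. In each library at least 99.99% of the counts fell on registered miRNAs. Levels are given as CPM, counts scaled to a fixed total of TMM-adjusted library size, where the floor of 3 counts lies between 0.244 and 0.448 CPM. Wild-type library 1 stood apart, with 326 of 471 features detected against 365 to 400 in the other 11 libraries. Its TMM factor was the lowest, 0.788 against 0.913 to 1.184 in the others. The 5 most abundant miRNAs of wild type took 68.7% of its counts, against 53.8% to 63.5% in the others. The 135 registered features that were not tested averaged at most 1.36 CPM in the SH and wild-type libraries. Among them 12 had counts in the SH line only and 19 in wild type only, with at most 5 and 10 counts in sum, which is too few to compare.

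The bulk of the miRNA pool was alike in both genotypes. The 10 most abundant miRNAs of wild type made up 75.9% ± 1.85 of the SH counts and 77.9% ± 3.49 of the wild-type counts (SD, n = 3 each). The muscle miRNA miR-1-3p alone took 20.8% ± 1.89 of the SH counts and 20.9% ± 1.44 of the wild-type counts. At 1000 CPM or more stood 38 registered miRNAs in the SH line and 40 in wild type. None of these 10 abundant miRNAs passed in edgeR or DESeq2, and their log2 fold changes (SH over wild type) lay between -0.41 for miR-81-3p (unadjusted p = 0.0432, the only one under 0.05) and 0.093 for miR-48-5p.

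In the SH line 5 miRNA arms fell and none rose. They were miR-71-3p, miR-246-5p, miR-238-5p, miR-229-3p and miR-82-5p, with log2 fold changes between -1.49 and -0.79. Each of the 5 is the minor arm of its precursor. These calls are 2.00% of the 250 features tested (edgeR quasi-likelihood test with Benjamini-Hochberg adjustment, threshold 0.05), and in the rising direction the share was 0.00%. In whole animals, fewer cells that make a miRNA and less of it per cell cannot be told apart. At an unadjusted p under 0.05 stood 36 features (14.4%), of which 13 were higher (5.20%) and 23 lower (9.20%). No call was left with library totals in place of TMM (edgeR adjusted p from 0.111 to 0.220, 32 features unadjusted) or with the SH and wild-type libraries alone in the fit (adjusted p = 0.136 for all 5, 31 unadjusted), at log2 fold changes from -1.35 to -0.70 and from -1.44 to -0.75. The count depended on single libraries: it was 3 without SH library 1, 2 without SH library 2, 8 without SH library 3, and 3 without wild-type library 3.

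The first of the 5, miR-71-3p, belongs to the precursor of miR-71, whose 5p arm promotes long life and stress resistance. miR-71-3p stood at 78.6, 61.3 and 80.4 CPM in the SH libraries, against 133.2, 144.6 and 158.5 CPM in the wild-type libraries. The highest SH library thus lay well below the lowest wild-type library. Its log2 fold change was -0.99 (SE 0.18, edgeR adjusted p = 0.00881). The major arm miR-71-5p overlapped between the groups, averaging 24837 ± 4265 CPM in the SH line and 25607 ± 7611 CPM in wild type (SD, n = 3 each). Its log2 fold change was -0.044, with a 95% interval from -0.51 to 0.42. The mir-71 precursor lies on chromosome I at 9379927 to 9380020 of WBcel235, on the minus strand, within an intron of ppfr-1 transcribed the same way.

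miR-246-5p is the minor arm of mir-246, a precursor whose loss shortens life span. It stood at 29.9, 15.1 and 30.3 CPM in the SH libraries, against 53.2, 59.7 and 64.0 CPM in wild type, with no overlap. The log2 fold change was -1.23 (SE 0.24, edgeR adjusted p = 0.00881). SH library 2 was the lowest of the 6. The major arm miR-246-3p averaged 4300 ± 511 CPM in the SH line and 4562 ± 296 CPM in wild type (SD, n = 3 each), a log2 fold change of -0.085 (interval -0.48 to 0.31). The precursor, at 10940134 to 10940230 on the plus strand of chromosome IV, lies in no annotated host gene.

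miR-238-5p had the largest log2 fold change of the 5, -1.49 (SE 0.30, edgeR adjusted p = 0.00881), and the lowest level. It stood at 2.86, 2.95 and 3.92 CPM in the SH libraries, which rest on 23, 20 and 30 counts, against 12.1, 6.89 and 8.70 CPM in wild type, which rest on 81, 72 and 107 counts. The groups did not overlap, and wild-type library 1 was the highest. Its partner miR-238-3p, an abundant arm needed for normal life span, averaged 21728 ± 1652 CPM in the SH line and 21325 ± 2858 CPM in wild type (SD, n = 3 each), with a log2 fold change of 0.027 (interval -0.30 to 0.36). The call for miR-238-5p was lost without SH library 1 or SH library 2.

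The mir-238 precursor lies on chromosome III at 8867328 to 8867425, on the minus strand and outside any annotated host gene, between mir-80 at a distance of 2058 bp and mir-90 at 6659 bp. The minor arms of both neighbours were also lower in each SH library than in each wild-type one. miR-80-5p stood at 676.7, 794.7 and 697.5 CPM in the SH line and 1061, 965.5 and 1010 CPM in wild type. miR-90-5p stood at 8.59, 4.14 and 9.16 CPM in the SH line and 15.2, 10.4 and 14.1 CPM in wild type. Their log2 fold changes of -0.49 and -0.85 did not pass the test (edgeR adjusted p = 0.183 and 0.217). The major arm miR-90-3p went the other way, with 671.8, 777.7 and 791.5 CPM in the SH line against 648.8, 604.5 and 556.4 CPM in wild type, at a log2 fold change of 0.31 that did not pass either. Over all 250 features, 43 (17.2%) had SH and wild-type libraries clear of each other, 18 with the SH line higher (7.20%) and 25 with it lower (10%).

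miR-229-3p comes from the mir-229, mir-64, mir-65 and mir-66 cluster, which lies within an intron of gcn-1 on the plus strand of chromosome III, with mir-229 at 2172452 to 2172566. It stood at 137.7, 106.6 and 133.5 CPM in the SH libraries, against 205.6, 211.3 and 265.7 CPM in wild type. The groups were clear of each other, and the log2 fold change was -0.85 (SE 0.17, edgeR adjusted p = 0.00881). The call was lost without SH library 2 or wild-type library 3. The other 7 arms of the cluster all overlapped between the groups, and none was called in edgeR or DESeq2 or had an unadjusted p under 0.05. The major arms miR-229-5p, miR-64-5p, miR-65-5p and miR-66-5p had log2 fold changes from -0.18 to 0.19, and the minor arms miR-64-3p, miR-65-3p and miR-66-3p, all near 10 CPM or less, from -0.30 to 0.82.

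miR-82-5p is the minor arm of mir-82, a member of the bantam family (mir-58, mir-80, mir-81 and mir-82), which regulates TGF-beta signalling and body size. It stood at 23.3, 24.1 and 27.1 CPM in the SH libraries, against 40.7, 44.0 and 44.4 CPM in wild type, a tight separation in both groups. The log2 fold change was -0.79 (SE 0.18, edgeR adjusted p = 0.0231). The call held in 2 of the 6 fits that left out an SH or a wild-type library, the fewest of the 5, since it was lost without SH library 1, SH library 2, wild-type library 2 or wild-type library 3. The major arm miR-82-3p averaged 53895 ± 6762 CPM in the SH line and 71032 ± 18332 CPM in wild type (SD, n = 3 each), and its log2 fold change of -0.40 (interval -0.83 to 0.03) did not pass. The precursor lies on the X chromosome at 2435258 to 2435354, on the minus strand, in an intron of gid-2 that is transcribed in the same direction.

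**Figure D1:**
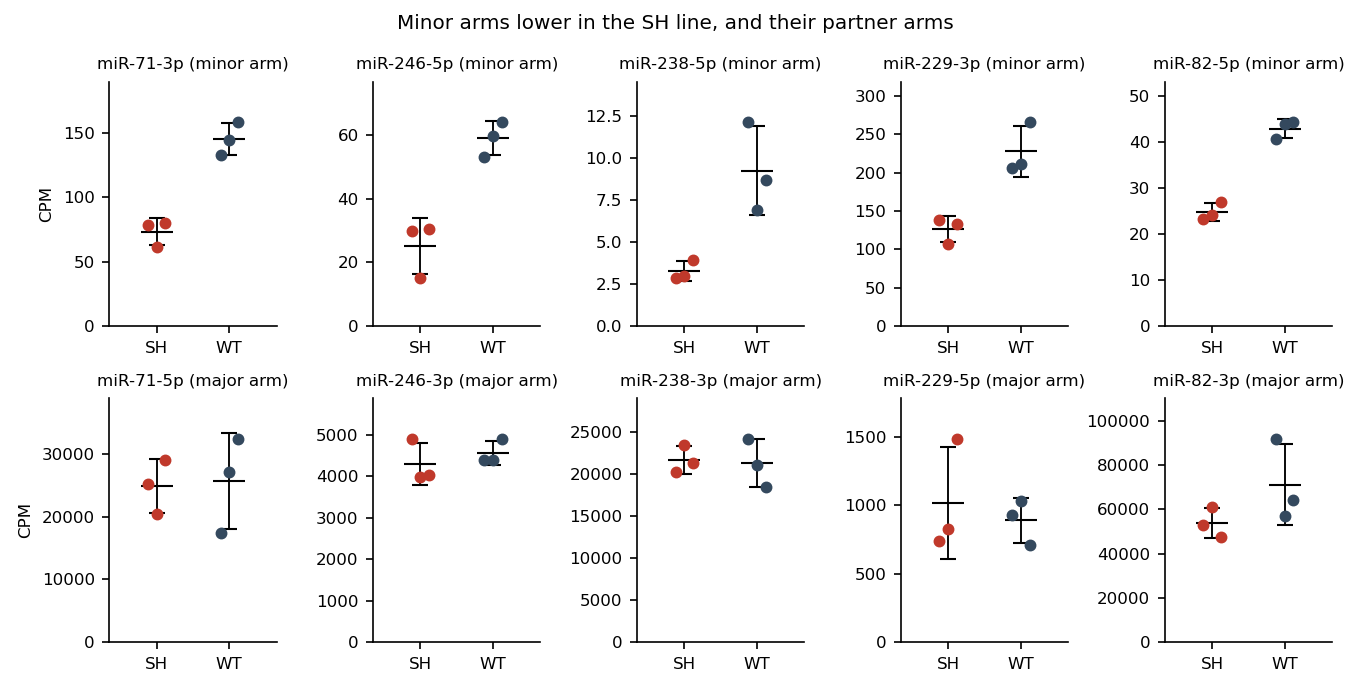
CPM in each library (points; SH red and left, WT grey and right) of the 5 minor arms that fell (top row) and of their major arms (bottom row), with the mean and SD of 3 libraries as bars; every axis starts at 0. In the top row every SH point lies below every WT point, as for miR-82-5p at 23.3 to 27.1 CPM against 40.7 to 44.4 CPM, while in the bottom row the points overlap.

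Below the threshold, the next members by p were also mostly minor arms. miR-1829b-3p (log2 fold change -1.46, edgeR adjusted p = 0.0578), miR-228-3p (-0.73, 0.0585), miR-54-5p (-0.62, 0.0662) and miR-77-5p (-0.86, 0.0662) did not pass in edgeR, but did in DESeq2, which called 10 of 252 features (3.97%), 9 lower and 1 higher. miR-228-3p is the minor arm of mir-228, a miRNA of glia, and stood at 36.7, 24.2 and 30.7 CPM in the SH line against 54.6, 44.0 and 53.4 CPM in wild type. miR-250-5p had a log2 fold change of -0.71 at an adjusted p of 0.268 in edgeR. miR-77-5p was the most abundant of these, with 1846, 2208 and 1716 CPM in the SH line against 2031, 3714 and 4700 CPM in wild type. Though minor by its mean over all 12 libraries, it exceeded its partner in wild-type libraries 2 and 3. The wild-type libraries held 1.61, 0.982 and 0.699 reads of miR-77-3p per read of miR-77-5p. The groups of miR-77-5p overlapped, because wild-type library 1 lay among the SH libraries. For miR-60-5p the same library decides the value: it stood at 21.5 CPM there, against 1.74 to 3.14 CPM in the SH libraries and 2.87 and 2.03 CPM in the other wild-type libraries.

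Of the 6 miRNAs of 10 CPM or more with the highest positive log2 fold changes at an unadjusted p under 0.05, none passed in edgeR. miR-47-3p was the only higher call of DESeq2, averaging 12949 ± 5455 CPM in the SH line and 7174 ± 1135 CPM in wild type (SD, n = 3 each). All SH libraries lay above the wild-type libraries, and SH library 2 was far above the rest. Its edgeR log2 fold change of 0.85 (SE 0.27, adjusted p = 0.135) was 0.45 without SH library 2. miR-245-3p stood at 60.9, 43.4 and 46.3 CPM in the SH line and 32.0, 38.2 and 28.5 CPM in wild type (0.61, adjusted p = 0.183). miR-792-3p, miR-358-5p and miR-1830-5p had edgeR log2 fold changes from 0.66 to 0.74, at adjusted p-values of 0.217 to 0.222, and miR-37-3p is described with its family below.

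The authors' deposited table for SH against wild type listed 12 miRNAs, of which 2 were higher and 10 lower in the SH line. All 12 had the same sign here and libraries that did not overlap, 5 were called by edgeR and 8 by DESeq2. Over all features tested these shares were 17.2% without overlap, 2.00% in edgeR and 3.97% in DESeq2. The list was drawn from the same SH and wild-type libraries (r = 0.999991 for the log2 ratios of its means). The shared signs and the separation are thus not independent of it. In the authors' deposited table the higher miRNAs were miR-37-3p (log2 fold change 0.60) and miR-35-3p (0.46), and the lower ones included miR-240-5p (-0.59) and miR-80-5p (-0.44). In the fit used here these 4 had edgeR adjusted p-values between 0.0867 and 0.223. Of the 12 miRNAs, 9 are minor arms.

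The lower side of the comparison was made up largely of minor arms. Both arms of 80 precursors could be tested. Among the 80 minor arms 5 were called lower and 0 higher, with a median log2 fold change of -0.20 (54 negative, 26 positive). The 80 major arms had 0 calls in edgeR, 7 at an unadjusted p under 0.05 and 1 in DESeq2, and a median of -0.0093 (41 negative, 39 positive). The 75 registered features outside such pairs had 0 calls in edgeR, 6 at an unadjusted p under 0.05 and 0 in DESeq2, and a median of 0.054, beside -0.035 over all 250. Of the 22 registered features lower at an unadjusted p under 0.05, 18 were minor arms and 4 major arms. Of the 12 that were higher, 3 were minor arms, 3 major arms and 6 outside the pairs.

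**Figure D2:**
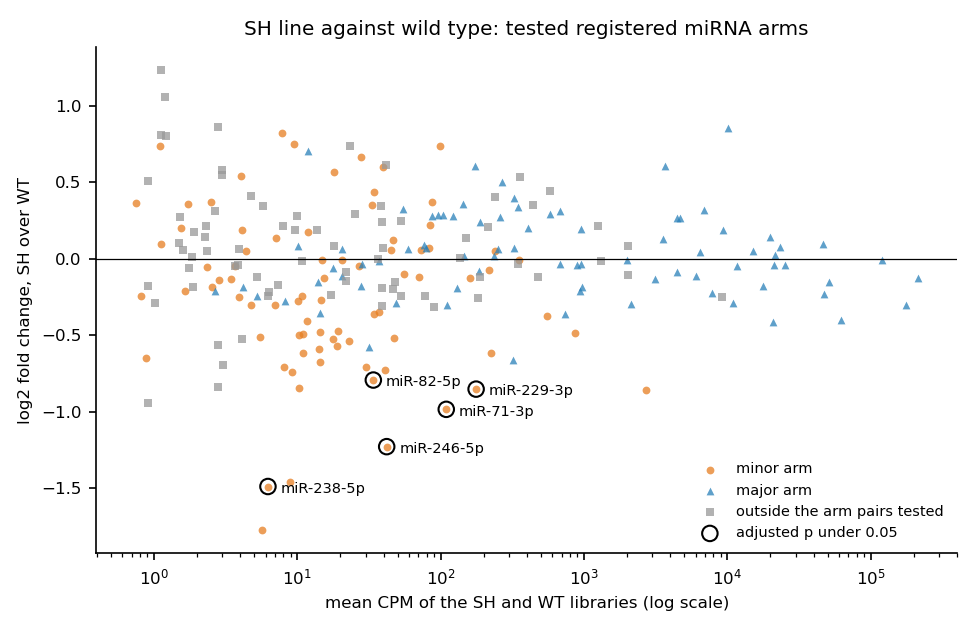
Log2 fold change (SH over WT, vertical) of the 235 registered miRNAs tested against their mean CPM over the 6 libraries (horizontal, log scale), marked as minor arm (orange circles), major arm (blue triangles) or outside the tested pairs (grey squares), with black rings at an adjusted p under 0.05. The 5 ringed points are minor arms between -1.49 and -0.79, and the minor arms as a whole are centred on -0.20.

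Minor arms of every level leaned to the negative side. The 11 minor arms that averaged 100 CPM or more over the 12 libraries had a median log2 fold change of -0.38, with 9 negative and 2 called. The 41 from 10 to 100 CPM had a median of -0.27 with 2 called, and the 28 under 10 CPM a median of -0.14 with 1 called. On the 5p side of the hairpin 3 of the 48 minor arms were called, with a median of -0.26, and on the 3p side 2 of the 32, with a median of -0.13. Over all 250 features 5 (2.00%) were called, and the median was -0.035. The splits by level, side and genomic position divide the same 5 calls. By genomic position, minor arms from same-strand introns had a median of -0.25 (21 arms, 3 called) and those with no host gene -0.24 (43 arms, 2 called). That the SH libraries were the shallower ones goes along with these differences, and its part in them was not tested.

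The ratio of the arms within a library does not depend on how libraries are scaled to each other. The log2 ratio of minor to major counts (0.5 added to each) differed between the SH line and wild type for 5 of the 80 precursors (6.25%, limma with Benjamini-Hochberg adjustment), lower in 4 and higher in 1. Over the 80 precursors the difference was negative for 53 and positive for 27, with a median of -0.21. Centred on each precursor's mean, the median log2 ratio was -0.22, -0.23 and -0.061 in the SH libraries and 0.025, 0.11 and 0.047 in the wild-type libraries, so that every SH library was below every wild-type library. This count, too, rested on single libraries: it was 1 without SH library 2, 11 without SH library 1 and 9 without wild-type library 2.

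For mir-238, 6936, 7775 and 5353 reads of the major arm were counted per read of the minor arm in the SH libraries, against 1991, 3054 and 2123 in wild type. The difference in log2 ratio was -1.49 (interval -2.12 to -0.87, limma adjusted p = 0.00538). For mir-246 there were 163.3, 263.5 and 132.3 major reads per minor read in the SH line against 82.6, 73.4 and 76.6 in wild type (-1.21, limma adjusted p = 0.00980). For mir-71 the numbers were 319.2, 333.2 and 359.8 in the SH line against 130.3, 187.4 and 204.1 in wild type (-0.98, limma adjusted p = 0.0258). mir-228 was called as well, with 617.9, 982.7 and 823.2 in the SH line against 402.1, 490.5 and 461.4 in wild type (-0.82, limma adjusted p = 0.0480). Leaving out each SH or wild-type library in turn, mir-238 was called in 6 of 6 fits, mir-246 in 5, mir-71 in 3 and mir-228 in 2. mir-246 was lost without SH library 2, mir-71 without SH library 2, SH library 3 or wild-type library 1, and mir-228 without any of those or without wild-type library 3. In all 4 the SH libraries had more major reads per minor read than any wild-type library. For mir-238 so did the ME libraries (3693, 3660 and 3845) and the tm1563 libraries (5765, 3342 and 4017). Its ratio did not pass between the SH line and ME or tm1563 (limma adjusted p = 0.0537 and 0.250). For mir-71 and mir-246 the tm1563 libraries also lay above wild type. In ME, mir-71 overlapped wild type (260.5, 189.5 and 339.7) and mir-246 lay below it (36.1, 63.8 and 48.4). For mir-228, ME and tm1563 both overlapped wild type. mir-229 was close to the threshold (-0.99, limma adjusted p = 0.0574), while mir-82 was not (-0.42, interval -1.02 to 0.18). As close were mir-1829b (-1.21) and mir-77 (-0.90), both at a limma adjusted p of 0.0574. Closer still were mir-90 (-1.22) and mir-39 (-1.03), both at 0.0526.

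mir-240 went the other way. This precursor lies next to mir-786 on the X chromosome, at 7882622 to 7882718. There were 2.36, 2.25 and 2.91 major reads (miR-240-5p) per minor read (miR-240-3p) in the SH libraries, against 5.27, 4.40 and 6.03 in wild type. The difference in log2 ratio was 1.06 (interval 0.57 to 1.55, limma adjusted p = 0.00822), and the call was lost only without SH library 2 among the 6 fits that left out an SH or wild-type library. The arms lay closer together in level in the SH line: the 5p arm stood at 223.5, 209.7 and 307.9 CPM in the SH line against 431.5, 364.1 and 376.4 CPM in wild type, and the 3p arm at 94.8, 93.2 and 105.7 CPM in the SH line against 81.8, 82.7 and 62.4 CPM in wild type. Neither arm passed on its own in edgeR (adjusted p = 0.0867 and 0.429), and in both the groups were clear of each other.

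**Figure D3:**
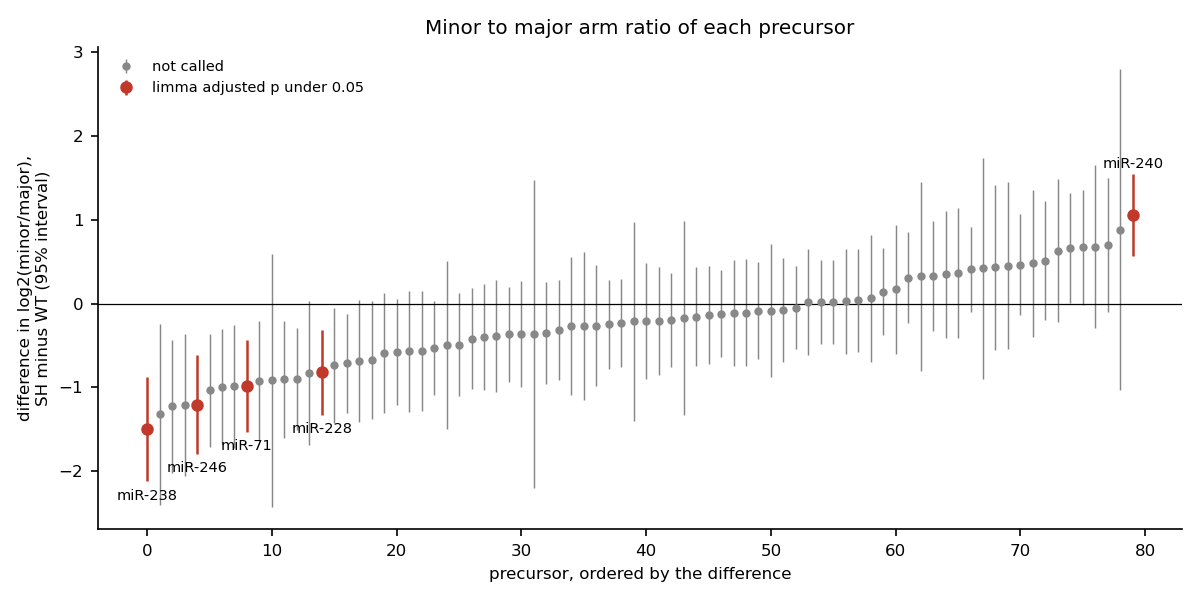
Difference in log2(minor/major) between SH and WT (SH minus WT, vertical) for 80 precursors ordered by its size (horizontal), with 95% intervals; red points have a limma adjusted p under 0.05. The red points are mir-238, mir-246, mir-71 and mir-228 from -1.49 to -0.82 and mir-240 at 1.06, and 53 of the 80 differences are negative.

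Families that share a seed, and markers of stage and tissue, gave 0 calls against wild type among 63 members tested, with 5 at an unadjusted p under 0.05 and 1 DESeq2 call. Over all features these shares were 2.00%, 14.4% and 3.97%, so 0 of 63 is near the share called overall. The let-7 family, which drives the passage from larva to adult, had 6 negative members of 7 (miR-241-5p turned positive with RLE factors or library totals) and a median log2 fold change of -0.12. let-7-5p itself averaged 5841 ± 248 CPM in the SH line and 6314 ± 382 CPM in wild type (SD, n = 3 each), with a log2 fold change of -0.11 (interval -0.42 to 0.19). lin-4-5p, which times the first larval transitions, was widely spread, at 1032, 1998 and 902.3 CPM in the SH line and 1818, 1119 and 1042 CPM in wild type (-0.017, interval -0.64 to 0.61). The 6 larval stage markers had a median of -0.013, beside -0.035 over all features.

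The mir-35 family acts in oogenesis and the early embryo. Of its 8 members, 6 were positive, at a median of 0.22 on the log2 scale, and miR-38-3p changed sign with RLE factors or library totals. miR-37-3p stood at 201.0, 230.8 and 198.9 CPM in the SH line against 131.7, 148.7 and 134.7 CPM in wild type, and miR-35-3p at 691.5, 622.4 and 679.3 CPM against 486.0, 468.0 and 509.5 CPM in wild type. Both were above wild type in every library, but neither passed (edgeR adjusted p = 0.183 and 0.223). Reads of such near-identical family members may be shared between them, which makes their separate values uncertain.

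All 4 tested members of the bantam family were negative with TMM, at a median of -0.32 on the log2 scale, and none was called, but miR-58a-3p, at -0.0094, turned positive with RLE factors or library totals. Their sequences are close enough that reads may be shared. miR-81-3p was among them at -0.41 (edgeR adjusted p = 0.318) and miR-80-3p at -0.23 (0.519). The mir-2 family (median 0.25, 4 members, of which miR-250-3p changed sign with RLE factors or library totals) and the mir-251 family (0.41, 2 members) lay on the positive side, while the medians of the mir-51, mir-64, mir-44, mir-72, mir-50 and mir-238 families lay between -0.15 and 0.093. The 7 miRNAs listed for life span and stress had a median of -0.060. The lowest of them, at -0.73, was miR-228-3p, the minor arm of mir-228 and the 1 DESeq2 call among all lists. Mirtrons are a class whose hairpins are excised by splicing instead of Drosha. Of 4 listed, 3 were tested, with log2 fold changes between -0.31 and -0.042. Among them, miR-1018 lies in no annotated host gene here and turned positive with library totals. miR-62 changed sign in 2 of 16 other fits.

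Among tissue markers, the muscle miRNA miR-1-3p had a log2 fold change of -0.13 (interval -0.66 to 0.40) and the intestinal miR-60-3p one of 0.26 (interval -0.25 to 0.78). The gonad markers miR-240-3p, miR-246-3p and miR-786-3p ranged from -0.22 to 0.37. The 4 neuron markers tested ranged from -0.94 to 0.36, with 2 negative and 2 positive, at a median of -0.39. Among them miR-791-3p stood at under 1 CPM in the SH line. None of these tissue markers passed. Of the 63 list members tested, 30 changed sign under at least 1 other setting or without some library, lin-4-5p under RLE and library-total scaling among them.

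**Figure D4:**
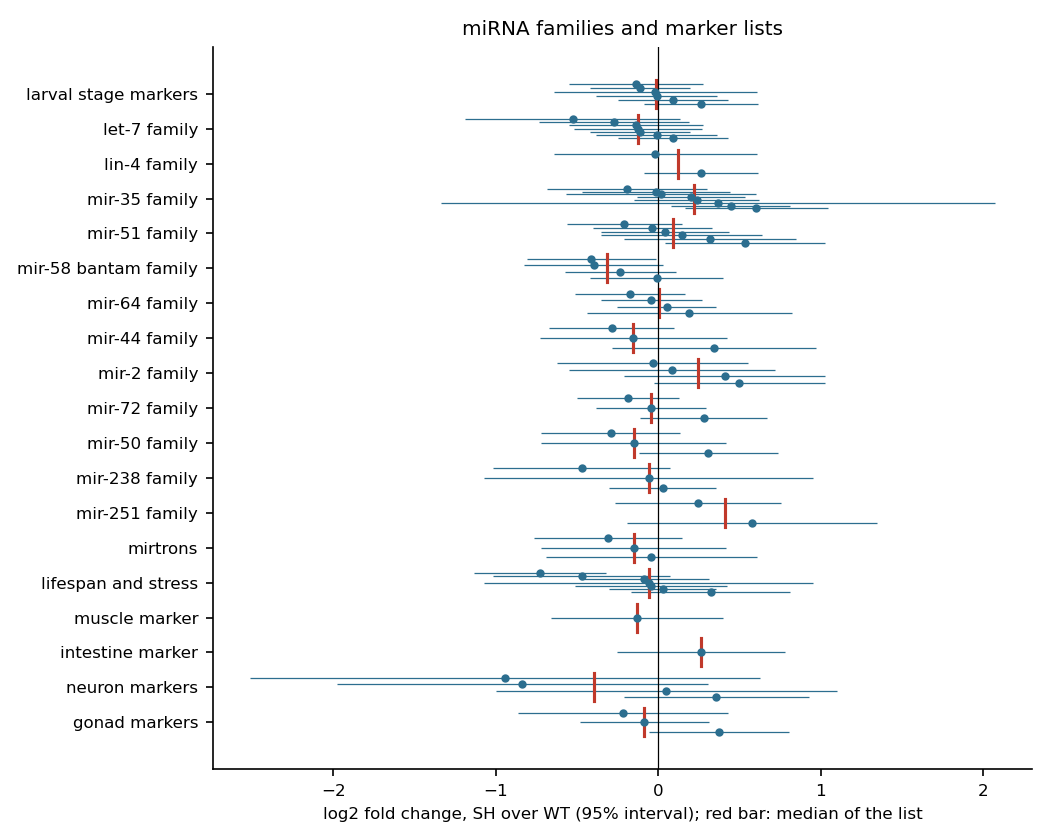
Log2 fold change (SH over WT, horizontal) with 95% interval of each tested member of 19 families and marker lists (rows), with the list's median as a red bar. No member of these lists was called; the bantam family lies at or below 0 with this scaling (miR-58a-3p turns positive with RLE factors or library totals), with a median of -0.32, and the mir-35 family mostly above, with a median of 0.22.

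The SH line was also set against the other mutants, in the same fit and with the same SH libraries, to show where it differs from them. Against mbl-1(tm1563), 5 miRNAs were called (2.00% of 250), 1 higher (0.400%) and 4 lower (1.60%) in the SH line. miR-245-3p stood at 60.9, 43.4 and 46.3 CPM in the SH line against 101.5, 128.0 and 134.9 CPM in tm1563 (log2 fold change -1.27, SE 0.21, edgeR adjusted p = 0.00354). miR-90-3p stood at 671.8, 777.7 and 791.5 CPM in the SH line against 1088, 1968 and 1674 CPM in tm1563 (-1.08, edgeR adjusted p = 0.00980). For both, every SH library was below every tm1563 library. Also lower were miR-243-3p, a miRNA loaded into the Argonaute RDE-1 (-0.70, edgeR adjusted p = 0.0467), and miR-791-3p, a miRNA of carbon dioxide sensing neurons (-2.68, edgeR adjusted p = 0.0467), which the SH line held at under 1 CPM. Both of these calls were lost in each of the 6 fits that left out an SH or tm1563 library. miR-51-3p was higher, at 61.6, 73.2 and 68.9 CPM in the SH line against 31.9, 43.9 and 36.1 CPM in tm1563 (0.87, edgeR adjusted p = 0.0396). The count was 2 with any 1 SH library, tm1563 library 1 or tm1563 library 2 left out, and 0 without tm1563 library 3, where 23 features had an unadjusted p under 0.05. DESeq2 called 13.

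The arms that fell in the SH line against wild type did not pass against tm1563. miR-71-3p had a log2 fold change of -0.20 (interval -0.57 to 0.18, SH over tm1563), miR-246-5p of -0.18 (-0.69 to 0.33), miR-229-3p of -0.28 (-0.65 to 0.078) and miR-82-5p of -0.12 (-0.51 to 0.26). miR-238-5p was lower at -0.81 (-1.45 to -0.16), with an edgeR adjusted p of 0.170. Over the 80 minor arms the median log2 fold change against tm1563 was -0.14, beside -0.092 over all 250 features.

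Against the ME line, 36 miRNAs were called (14.4% of 250), 9 higher (3.60%) and 27 lower (10.8%) in the SH line. Of the lower ones, 20 were minor arms and 5 major arms. The 80 minor arms had a median log2 fold change of -0.51, against 0.012 for the major arms and -0.13 over all features. Among them were 3 of the arms lower than in wild type: miR-82-5p (log2 fold change -0.87, edgeR adjusted p = 0.00440), with 47.3, 43.7 and 45.4 CPM in the ME line, miR-229-3p (-0.80, edgeR adjusted p = 0.00509), with 242.2, 192.2 and 223.6 CPM there, and miR-246-5p (-0.88, edgeR adjusted p = 0.0213), with 43.8, 41.5 and 53.4 CPM there. Of the 6 fits that left out an SH or ME library, 5 kept the calls of miR-82-5p (lost without SH library 1) and miR-229-3p (lost without ME library 3). For miR-246-5p 3 kept it, since it was lost without SH library 1, ME library 1 or ME library 3. miR-71-3p and miR-238-5p did not pass (-0.53 and -0.93, edgeR adjusted p = 0.0564 and 0.0520). Both comparisons use the same SH libraries, so their values are not independent.

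The farthest below the ME line were miR-788-5p, at 88.4, 185.3 and 95.2 CPM in the SH line against 1114, 315.1 and 359.3 CPM in ME (-2.28), and let-7-3p, the minor arm of let-7, at 24.3, 62.2 and 24.7 CPM in the SH line against 230.6, 91.7 and 144.2 CPM in ME (-2.07). Both were widely spread, with ME library 1 the highest. miR-61-5p (-1.04), miR-83-5p (-1.40) and miR-44-5p (-1.72), all minor arms, were called in each of the 6 fits that left out an SH or ME library. miR-83-5p, for example, stood at 10.6, 6.79 and 9.94 CPM in the SH line against 33.3, 19.2 and 20.1 CPM in ME.

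Of the 9 miRNAs higher in the SH line than in ME, 6 are the more abundant arm of their precursor, and miR-251, miR-359 and miR-1817 have no partner arm in the table. The partners of miR-252-5p, miR-245-3p and miR-76-3p were too low to be tested. miR-252-5p stood at 68.1, 44.7 and 60.0 CPM in the SH line against 12.7, 21.7 and 16.0 CPM in ME (log2 fold change 1.78, SE 0.25, edgeR adjusted p = 0.000748). The neuronal miR-790-5p stood at 224.4, 120.8 and 134.7 CPM in the SH line against 42.5, 53.2 and 72.1 CPM in ME (1.52). miR-359 (1.07), miR-246-3p (0.92), miR-245-3p (1.41), miR-76-3p (1.05), miR-358-5p (1.15) and miR-251 (2.41, at under 4 CPM) were also higher, and each of these 8 was called without any single library of the SH or ME line. The ninth, miR-1817 (0.74), was called in 2 of those 6 fits. For mir-246 the arms moved in opposite directions, and its log2 ratio of minor to major differed from that of ME by -1.89 (limma adjusted p = 0.00013). The lower calls were less steady: with ME library 1, ME library 3 or SH library 1 left out, 13, 8 and 4 of them were made, against 8 or more higher calls in each case.

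**Figure D5:**
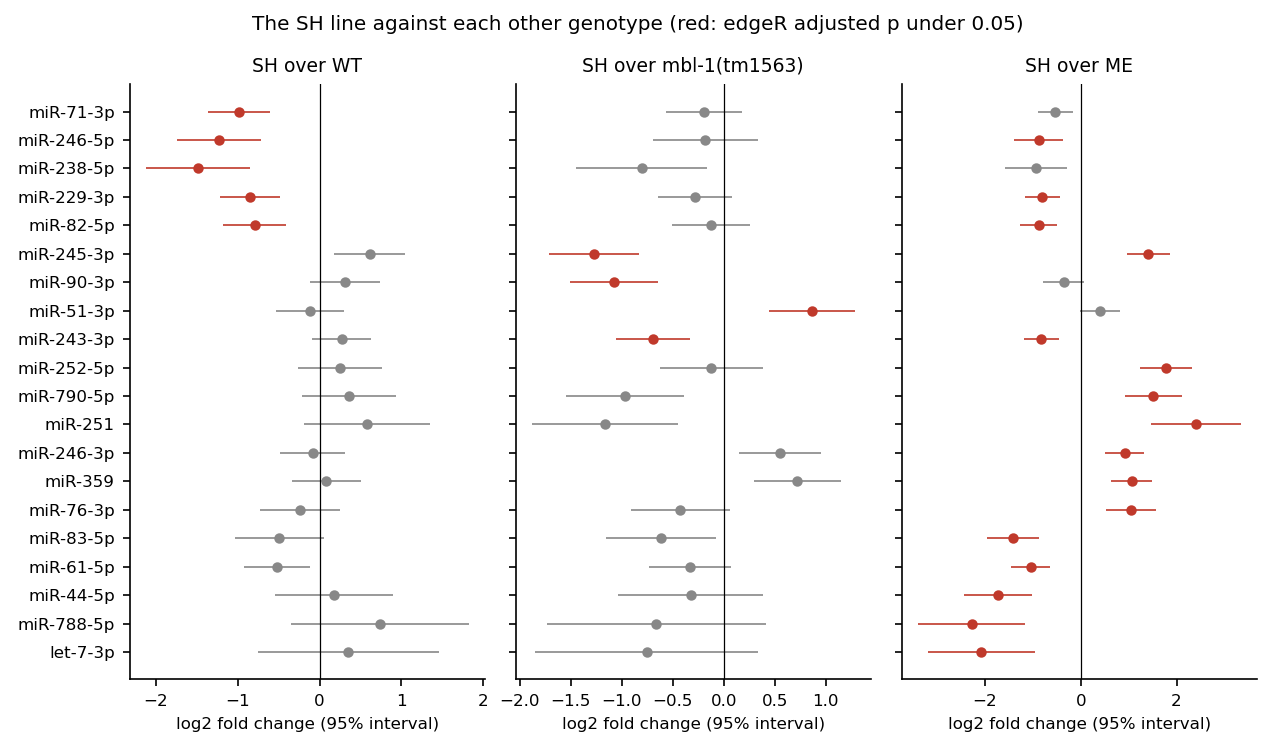
Log2 fold change (horizontal, 95% interval) of 20 miRNAs (rows) in the SH line over WT (left), over mbl-1(tm1563) (middle) and over ME (right); red marks an edgeR adjusted p under 0.05. The 5 upper rows, the arms lower than in WT, are grey against tm1563, and miR-246-5p, miR-229-3p and miR-82-5p are red against ME. The panels share the SH libraries, and each has its own horizontal scale.

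Across the 4 genotypes, the centred log2 ratio of minor to major arms averaged -0.17 ± 0.094 in the SH line, 0.26 ± 0.062 in the ME line, -0.069 ± 0.076 in tm1563 and 0.062 ± 0.046 in wild type (SD, n = 3 libraries each, medians over 80 precursors). The SH line was thus the lowest and the ME line the highest. The range of the SH libraries (-0.23 to -0.061) overlapped that of the tm1563 libraries (-0.15 to 0.00058) and lay below those of the wild-type and ME libraries. ME libraries, at 6946205 to 8066278 counts, were about as deep as the SH libraries.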

How the data were processed

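The authors deposited whole-number read counts per mature miRNA arm for the 12 libraries, with no normalization; the submitters' processing notes name Bowtie, the build WBcel235 and DESeq2, with versions and read assignment not given in the sources used here. Their comparison table of SH with wild type, per the file headers, holds normalized group means (a signal), log2 fold changes and p-values with adjusted values, for listed miRNAs only; the log2 ratios of its means matched the SH columns at r = 0.999991 and the ME columns at r = 0.852 (12 miRNAs). No library column was left unmapped (0).

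From the counts, features passing edgeR's filterByExpr (minimum count 10, minimum total 15; 250 of 471, the rest holding 0.00490% of counts) entered 1 quasi-likelihood fit of all 12 libraries (edgeR 4.0.16, R 4.3.3, TMM, robust), with 1 mean per line. P-values were adjusted over all 250. Arm ratios used limma 3.58.1 (trend, robust) with a pseudocount of 0.5, and DESeq2 1.42.0 was an alternative. Intervals are at 95%; the floor of 3 counts covers counting error only, since reads carry no molecular identifiers. The biological coefficient of variation was 22.7%. Positions come from the Ensembl annotation of WBcel235 (release 115), which matched 211 of 218 precursor names.

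The members and lists were chosen with earlier results of these data known. miRNAs were named by a rule: every call with its partner arm, the authors' listed miRNAs, DESeq2's calls, the 6 strongest each way with 10 CPM or more at an unadjusted p under 0.05, list members, called precursors, the 10 most abundant, and up to 10 each way against the other lines; some that add nothing were left out. In the mir-51 family, miR-54-3p and miR-55-3p replaced the 5p arms first written down, since the family seed is on that side, and miR-1018 was taken with no arm. The scripts were tested on simulated data.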

Additional observations from a re-analysis of the deposited data

How the results depend on the processing

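Against wild type, the count of 5 calls was 0 with library totals in place of TMM (32 at an unadjusted p under 0.05) and 0 with the SH and wild-type libraries alone (31 unadjusted, edgeR), and 10 in DESeq2, 1 higher and 9 lower. It was 5 to 6 with RLE factors, without a filter, at 1 CPM or more, on registered names only and in limma-voom. Leaving out a library gave 2 to 8 calls (2 to 7 lower, 0 to 1 higher). Library totals moved the median of all features to 0.079, against -0.035, and that of the major arms to 0.11; the 5 called arms were negative under every setting tried. Against tm1563 (5 calls), DESeq2 made 13 (7 higher), RLE 3 higher, library totals 0 higher and no filter 2 higher, and leaving out a library gave 0 to 2 calls (0 to 1 higher, 0 to 2 lower). Against ME (36 calls, 9 higher and 27 lower), library totals made 18 (10 lower), RLE 24 (12 higher, 12 lower), no filter 25 (16 lower) and DESeq2 42 (20 higher, 22 lower), and leaving out a library gave 12 to 36 (8 to 12 higher, 4 to 26 lower). Of the arm ratios (5 calls), 10 were called (9 lower) with 50 or more minor counts on average, 4 with a pseudocount of 5, and 1 to 11 (1 to 10 lower, 0 to 2 higher) leaving out a library. The cause of these shifts was not tested.

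Replicate numbers did not pair the SH and wild-type libraries (r of same-numbered deviations -0.17, -0.022 and 0.12). With a replicate block there were 7 calls against wild type, 3 against tm1563 (2 lower) and 35 against ME, and 7 arm ratios.

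Signs turned for 8 of the 71 miRNAs followed singly, none of them called, and for others that the text gives only within a list or range, among them miR-58a-3p, miR-64-5p, miR-66-5p, miR-786-3p and miR-791-3p. miR-71-5p was at 0.029 (library totals), 0.0052 (1 CPM filter), 0.00088 (SH and wild type only), 0.0026 (DESeq2) and -0.27 to 0.16 leaving out a library. lin-4-5p was at 0.028 (RLE), 0.097 (library totals), 0.0071 (no filter), 0.038 (1 CPM filter), 0.019 (registered names), 0.020 (SH and wild type only), 0.039 (DESeq2) and -0.46 to 0.27 leaving out a library. Leaving out a library gave -0.19 to 0.42 for miR-229-5p, -0.064 to 0.12 for miR-238-3p, -0.25 to 0.071 for miR-1-3p, -2.27 to 0.0041 for miR-60-5p and -0.21 to 1.19 for miR-65-3p, and library totals 0.016 for miR-246-3p. With 3 libraries a group, depth limits what can be called among arms near the floor.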

Other observations

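By chromosome, the 30 tested miRNAs of chromosome III leaned lowest in the SH line. Their median log2 fold change was -0.18, with 22 negative and 8 positive, and 2 were called, miR-238-5p and miR-229-3p. Over all 250 features the median was -0.035, with 135 negative and 115 positive, and 5 (2.00%) were called. The medians were -0.065 on chromosome I (24 miRNAs), 0.017 on II (43), 0.020 on IV (34), -0.057 on V (22) and -0.021 on X (74). By host, the 63 miRNAs of same-strand introns had a median of -0.044 with 3 calls, the 30 of opposite-strand introns -0.040 with 0 (7 at an unadjusted p under 0.05 in edgeR, 1 call in DESeq2), and the 130 with no host gene -0.022 with 2. This grouping was looked at after the values were seen, members of a cluster are not independent, and no test was made.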
